A study of Mus musculus with 12 samples.

Results

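The spheroid culture of mouse 1 was set against the adherent culture of the same mouse, gene by gene and across the whole array. Both cultures were of prostate stem cells of the C57Bl/6 strain, per the labels. The spheroid culture, in which cells grow together as balls, was hybridised to 3 replicate arrays, and so was the adherent culture, in which cells grow as a monolayer on the dish. A gene entered the comparison when a probe with that symbol was detected (detection p under 0.05) on all 3 arrays of at least 1 of these cultures, which 9814 of the 19031 named genes on the array did. The series held 12 arrays in all. Besides the 6 arrays compared here, 1 pool array per culture was used as a check and 3 arrays of adherent cells of mouse 2 gave the size of a difference between adherent cultures. Nothing in the labels says that the replicates of a culture were grown apart, so the p-values speak of array-to-array spread in cells of 1 mouse, which may be technical. The growth conditions of the cultures, the age of the mice and the way the cells were isolated are not given in the sources used here.

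Anchorage is a signal for epithelial cells. Integrins on a cell attached to a dish connect the matrix to actin and to growth factor signalling, and growing cells need ribosomes, processed RNA, nucleotides and amino acids. Cells in a ball contact one another more than a surface. Slowly growing or differentiating epithelium is known for tight junctions, for lysosomes and autophagy, which break down and recycle cell contents, and for secreted proteins that defend a surface. Basal cells of the prostate line the outside of the gland's tubules and express the keratins Krt5 and Krt14.

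Between 44.9% and 49.2% of probes were detected on the spheroid arrays and between 44.4% and 47.7% on the adherent arrays of mouse 1. The ratio of the 90th percentile of signal to background was 3.09 to 3.24 for spheroid arrays, against 3.82 to 3.96 for adherent arrays. This ratio moved with the culture, and its part in the results was not tested. Of 11 basal markers on the array 10 were tested, 1 rose (Krt15) and 3 fell (Cdh3, Lgals7 and Dst), Krt5 and Krt14 differed by -0.09 and 0.07, and the summed signal was 81768 to 84161 on the spheroid arrays and 68122 to 72068 on the adherent arrays. Lgals7 differed by -2.88, and its other probes gave -1.93 and -0.27. Of 13 luminal markers on the array 10 were tested, 6 rose and 1 fell, with sums of 26013 to 26758 on the spheroid arrays and 9819 to 10504 on the adherent arrays. The rises were Krt19, Krt7, Cldn4, Elf3, Tmprss2 and Foxa1. The fall was the keratin Krt18, at -1.425, and the keratin Krt8 differed by -0.84 and was not called. Fibroblast and smooth muscle markers summed to 1617 to 1671 on the spheroid arrays and 22607 to 26093 on the adherent arrays. Of these 17 genes 6 were tested and 4 fell, among them Acta2 and Vim, while Col1a1, Pdgfra and Pdgfrb were undetected on all 6 arrays. Leukocyte markers summed to 1556 to 1812 on the spheroid arrays and 369 to 437 on the adherent arrays, of 12 genes on the array 3 were tested and 2 rose (Cd14 and Cd52), and Laptm5 and Tyrobp were undetected on all 6 arrays. Endothelial markers summed to 97 to 142 on the spheroid arrays and 320 to 376 on the adherent arrays, and Cdh5, Vwf and Cldn5 were undetected on all 6 arrays. Neuroendocrine markers summed to 70 to 77 on the spheroid arrays and 281 to 336 on the adherent arrays, with Ncam1 as the lone gene tested. Secretory prostate markers summed to 1058 to 1167 on the spheroid arrays and 298 to 316 on the adherent arrays, with 3 of 11 genes tested. Acpp rose by 1.20, and Klk1b26 rose to 8.82 from no detection in the adherent culture, while Spink1 was not called. Pbsn, Msmb, Sbp, Azgp1, Defb50, Pnliprp1, Tgm4 and Apof did not pass the filter. No seminal vesicle marker passed it. Each sum adds linear signal, so the brightest gene of a list weighs most in it. For fibroblasts and smooth muscle this was Acta2 (mean log2 intensity 14.47 on the adherent arrays), while Col1a2 differed by 0.02. For leukocytes it was Cd14 (10.63 on the spheroid arrays). Egfl7 for endothelium and Ncam1 for neuroendocrine cells had 8.14 and 8.12 on the adherent arrays. Ncam1 differed by -2.56, and its other probes gave -0.86 and -0.05. The part of these markers in the results was not tested. In bulk RNA, fewer cells of a type cannot be told apart from less RNA per cell.

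A gene was called when the adjusted p of limma (Benjamini-Hochberg) was under 0.05 and the fold was at least 2, and "rose" and "fell" below are used for genes called in the spheroid culture relative to the adherent culture. By this rule 2788 of the 9814 genes changed (28.4%), made up of 1366 rises (13.9%) and 1422 falls (14.5%). Median scaling of the arrays gave 987 higher and 2087 lower and moved the median of all genes to -0.28, and cyclic loess gave 1502 higher and 1083 lower, so the balance of directions rested on the scaling. The rises reached further than the falls: 258 genes rose and 93 fell at least 8-fold, and 32 rose and 2 fell at least 64-fold. The array values of the cultures did not overlap for 6894 genes (70.2%), which include all 2788 called genes, so an absence of overlap on its own does not single a gene out. Between the adherent cultures of mouse 2 and mouse 1, 242 genes were called (2.47%). The ratio of signal to background described above was uneven on the arrays of adherent mouse 2, at 3.92, 4.72 and 4.49. It was 3.82 to 3.96 on those of adherent mouse 1. Whether this unevenness changed the count of 242, or the list counts between the adherent cultures given below, was not tested. On the pool arrays, which hold the same replicates mixed, 2787 of the 2788 called genes had the same direction. Called genes had 1708 other passing probes, of which 1083 gave the same call, 12 an opposite call and 613 no call. The median log2 difference over all genes was -0.06 and the median of its size was 0.56.

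**Figure D1:**
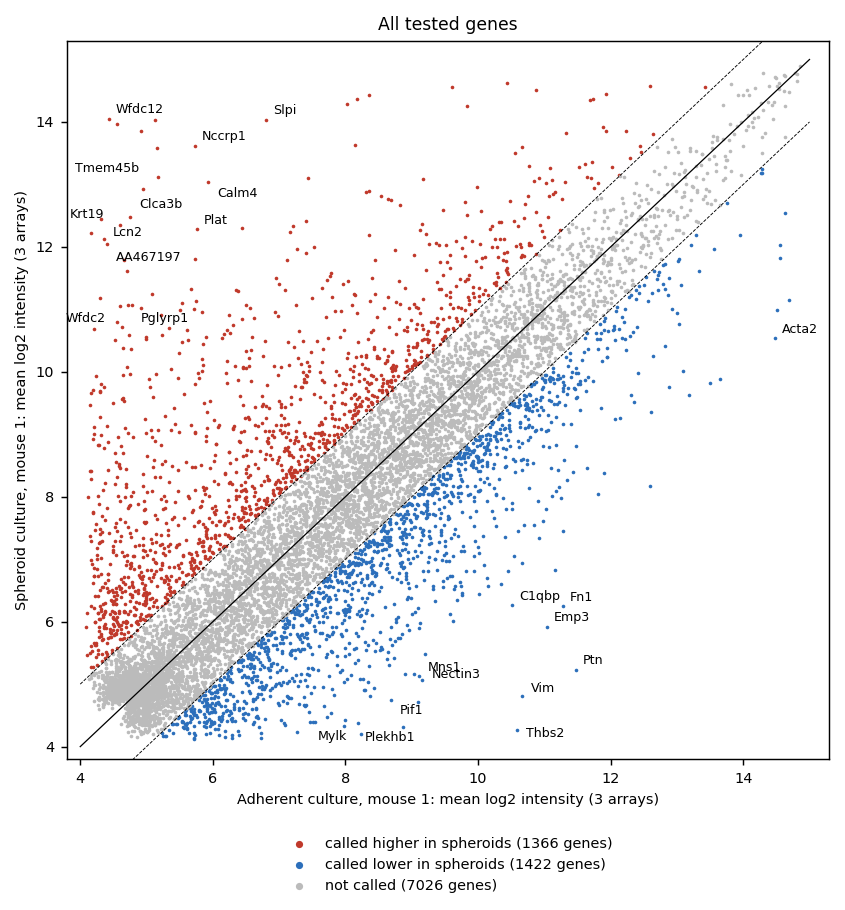
Mean log2 intensity of each of the 9814 tested genes over the 3 spheroid arrays (vertical axis) and the 3 adherent arrays of mouse 1 (horizontal axis), with dashed lines at a fold of 2 and the solid line at equal values. The 1366 genes called higher lie above the upper dashed line and the 1422 called lower below the lower one, and the 24 labelled genes have the largest rises and falls outside the squamous and cell cycle lists.

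Genes of squamous differentiation (61 of 77 tested rose, 2 fell) and of the cell cycle (16 of 278 rose, 180 fell) are left aside from here on, which leaves 9459 tested genes with 1289 rises and 1240 falls. Of all 9814 tested genes 4751 belonged to at least 1 of 67 lists by function (a gene of both kinds of list stays in its list by function), and each list is described by its counts and its median beside those over all genes. A gene undetected in both cultures is not in these counts, and a gene that passed the filter through 1 culture alone could be higher there only. Counts near the shares of all genes (13.9% higher and 14.5% lower) do not set a list apart. Log2 differences carry an offset of 16, which shrinks those of weakly expressed genes. A fold against a culture with no detection on any of its arrays is a bound, written as "at least".

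The largest rises included secreted and membrane proteins of epithelial surfaces. Wfdc12, which has the whey acidic protein domain of small protease inhibitors, had log2 intensities of 14.03, 14.09 and 14.04 on the spheroid arrays and 4.33, 4.62 and 4.34 on the adherent arrays. It was undetected in the adherent culture and at least 735-fold higher in spheroids (limma adjusted p = 1.29e-20). Nccrp1, an F-box protein, had values of 13.68, 13.66 and 13.52 on the spheroid arrays and 5.72, 5.99 and 5.47 on the adherent arrays. Its log2 difference was 7.89 ± 0.10 (SE), and it stood 2.08 higher in adherent mouse 2 than in adherent mouse 1. Both genes were far apart between the cultures of mouse 1 and tight within them. Lcn2, lipocalin 2, which binds bacterial siderophores, had values of 12.03, 12.15 and 12.18 on the spheroid arrays and 4.35, 4.26 and 4.47 on the adherent arrays and was at least 198-fold higher. AA467197, also known as Nmes1, was at least 183-fold higher. Krt19, a keratin of simple epithelium, rose by 7.75 and Wfdc2, another whey acidic protein, by 6.47, each detected on 1 of 3 adherent arrays. These genes stood also higher in adherent mouse 2 than in adherent mouse 1, by 3.93 and 4.88, so the adherent cultures differed in them. Tmem45b rose by 7.94, Clca3b (a chloride channel accessory protein) by 7.73, Slpi (an inhibitor of leukocyte proteases) by 7.23 and Calm4 (a calmodulin-like protein) by 7.11. Slpi differed by -1.40 between adherent mouse 2 and adherent mouse 1. Plat, the tissue plasminogen activator, rose by 6.52, and Pglyrp1, which binds bacterial cell wall, by 6.28, whereas a second probe of each gave 0.72 and 1.02.

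The largest falls included matrix, contractile and growth factor genes. Thbs2, thrombospondin 2, a secreted matrix glycoprotein, had log2 intensities of 4.21, 4.41 and 4.18 on the spheroid arrays and 10.45, 10.70 and 10.63 on the adherent arrays. It was undetected in spheroids and at least 69.6-fold lower there (limma adjusted p = 8.81e-17). Ptn, the heparin-binding growth factor pleiotrophin, had values of 5.32, 5.15 and 5.21 on the spheroid arrays and 11.45, 11.31 and 11.66 on the adherent arrays, a difference of -6.24 ± 0.11. The spheroid values of both genes lay near background. Vim, the mesenchymal filament protein vimentin, had values of 4.71, 4.40 and 5.33 on the spheroid arrays and 10.79, 10.53 and 10.67 on the adherent arrays and was detected on 2 of 3 spheroid arrays. Fn1, fibronectin, had values of 6.22, 6.28 and 6.25 on the spheroid arrays and 11.29, 11.26 and 11.29 on the adherent arrays, a difference of -5.03, with -1.41 and -1.45 by its other probes. Acta2, smooth muscle actin, differed by -3.93 from a very bright adherent level, and its other probes gave -4.52 to -4.83. Emp3 (a tetraspan membrane protein) differed by -5.12, C1qbp (a mitochondrial matrix protein) by -4.26, Nectin3 (an adhesion molecule) by -4.09, Mns1 (a cilium protein) by -3.98, Pif1 (a DNA helicase) by -3.93 and Plekhb1 by -3.80. Mylk, the myosin light chain kinase of contraction, was undetected in spheroids and at least 13.6-fold lower, with -1.11 and -1.29 by its other probes.

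The promoters of the leading genes are shown because these genes had the largest differences in the comparison. The 250 bases before each start site are given from RefSeq on GRCm38.p6, 5′ to 3′ along the gene, for the 2 largest rises and the 2 largest falls that had an entry: Wfdc12 at chr2:164190559-164190808, Lcn2 at chr2:32387740-32387989, Thbs2 at chr17:14694263-14694512 and Ptn at chr6:36810180-36810429, all on the minus strand. Capitals mark matches, on either strand, to any of 16 short motifs, which are named with the promoter counts further on.
Wfdc12: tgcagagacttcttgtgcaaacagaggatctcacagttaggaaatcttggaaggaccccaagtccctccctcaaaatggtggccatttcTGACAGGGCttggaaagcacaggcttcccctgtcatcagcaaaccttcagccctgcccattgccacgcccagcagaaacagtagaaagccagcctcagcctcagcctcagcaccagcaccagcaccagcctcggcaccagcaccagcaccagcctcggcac
Lcn2: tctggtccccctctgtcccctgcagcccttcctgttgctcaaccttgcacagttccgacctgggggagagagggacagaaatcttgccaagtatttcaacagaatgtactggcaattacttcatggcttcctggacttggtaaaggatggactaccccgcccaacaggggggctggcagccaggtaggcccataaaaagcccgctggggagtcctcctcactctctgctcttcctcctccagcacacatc
Thbs2: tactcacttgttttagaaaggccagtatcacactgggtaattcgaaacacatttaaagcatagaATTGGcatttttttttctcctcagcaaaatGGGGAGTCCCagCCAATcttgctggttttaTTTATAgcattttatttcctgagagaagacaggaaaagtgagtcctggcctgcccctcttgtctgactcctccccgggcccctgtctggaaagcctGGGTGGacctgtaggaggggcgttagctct
Ptn: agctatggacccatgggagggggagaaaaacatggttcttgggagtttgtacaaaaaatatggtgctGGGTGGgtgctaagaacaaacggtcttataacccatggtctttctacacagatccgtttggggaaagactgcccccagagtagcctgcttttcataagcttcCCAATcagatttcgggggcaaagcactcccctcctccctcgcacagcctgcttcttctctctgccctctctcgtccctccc
Lcn2 held no match in this window and Wfdc12 held 1, to the antioxidant motif. Thbs2 held 5 and Ptn 2, with CCAAT and CCACCC in both. Over the same 250 bases CCAAT was in 36.9% and CCACCC in 32.7% of the promoters of all tested genes.

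Among the lists by function, ribosome biogenesis held the largest share of lower genes (59.8%) and nuclear pore genes the next (47.2%). Of 97 tested genes of ribosome biogenesis, which process ribosomal RNA in the nucleolus, 58 fell and 0 rose, with a median log2 difference of -1.15 against -0.06 over all genes. Over the 91 of them detected on all 6 arrays 57 fell. Ncl, nucleolin, a major nucleolar protein, had values of 7.41, 7.07 and 7.08 on the spheroid arrays and 9.91, 9.96 and 10.12 on the adherent arrays. Its difference was -2.81 ± 0.11 (limma adjusted p = 3.26e-13) and its second probe gave -2.77. Tcof1, which helps polymerase I transcribe ribosomal DNA, differed by -2.58 (another probe gave -0.41), Grwd1, a ribosome assembly chaperone, by -2.52, and Rrp15 by -2.20. Exosc8 and Exosc2, subunits of the RNA exosome, differed by -2.21 and -2.13. In adherent mouse 2 against adherent mouse 1, 0 of the 97 genes were called and the list median was -0.02.

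Nuclear pore and nuclear transport genes fell in 25 of 53 and rose in 2, with a median of -0.94. Ranbp1, which works with the Ran GTPase in nuclear transport, had values of 10.87, 11.05 and 10.93 on the spheroid arrays and 13.03, 12.99 and 12.98 on the adherent arrays. Nup107 and Nup133, scaffold subunits of the pore, differed by -2.42 and -2.06, Nup43 by -2.16, the pore membrane protein Ndc1 by -2.26 and Rcc1, which charges Ran with GTP, by -2.04. Another probe of Nup133 gave -0.13. Of 136 splicing and hnRNP genes 51 fell (37.5%, against 14.5% of all genes) and 2 rose (median -0.80). Lsm3, a ring subunit of the U6 particle, had values of 8.51, 8.41 and 8.34 on the spheroid arrays and 10.61, 10.65 and 10.75 on the adherent arrays, and its partner Lsm2 differed by -2.06. Hnrnpa2b1 differed by -1.89 (another probe gave -0.79), Celf4 by -2.54, and Khdrbs2 rose by 2.00. The spheroid and adherent values of Lsm3 lay about 2 log2 units apart with no overlap, as did not overlap the values of 70.2% of all tested genes.

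Lists of translation held smaller shares of falls, some of them near or below the 14.5% of all genes. Of 53 cytosolic ribosomal proteins 4 fell (7.55%; Rps15a, Rpl21, Rpl7l1 and Rpl22, at -1.17 to -1.59) and 0 rose, with a median of -0.16 that cyclic loess turned to 0.12. Another Rpl7l1 probe gave -0.86. Many ribosomal protein genes have near-identical copies in the genome, so their probes may share signal. Of 71 mitochondrial ribosomal proteins 11 fell (15.5%) and 0 rose (median -0.51), among them Mrps28 at -1.82 and Mrpl49 at -1.77. Of 65 translation factors 11 fell (16.9%, median -0.49), among them Eif2s2, the beta subunit of the factor that brings initiator tRNA, with values of 9.41, 9.28 and 9.63 on the spheroid arrays and 10.86, 10.90 and 11.07 on the adherent arrays. Of 31 aminoacyl-tRNA synthetases 8 fell (25.8%, median -0.53), led by the isoleucine enzyme Iars at -1.37. RNA polymerase and Mediator genes held 9 falls and 1 rise among 96 (9.38% lower, below the 14.5% of all genes), with Gtf3a, which starts 5S RNA transcription, at -1.64.

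Enzymes that supply building blocks held larger shares of falls than the 14.5% of all genes, and shares of rises near the 13.9% of all genes. Of 30 serine, one-carbon and amino acid enzymes 14 fell (46.7%) and 4 rose (13.3%), with a median of -0.92. Mthfd1, which passes one-carbon units through folate, had values of 7.65, 7.63 and 7.34 on the spheroid arrays and 10.26, 10.26 and 10.28 on the adherent arrays. Phgdh and Psat1, the first enzymes of serine synthesis, differed by -2.23 and -2.15, Shmt1 (serine to glycine) by -2.23, Ahcy (homocysteine) by -2.21 and Srm (spermidine synthesis) by -2.08. Of 51 purine and pyrimidine enzymes 22 fell (43.1%) and 7 rose (13.7%, median -0.89). Cad, which starts pyrimidine synthesis, had values of 6.84, 7.30 and 6.77 on the spheroid arrays and 9.59, 9.55 and 9.56 on the adherent arrays, Umps, which ends it, differed by -2.29, and Atic, of purine synthesis, by -2.42. The rises included Xdh, xanthine dehydrogenase, which degrades purines, at 5.29. Xdh stood 1.77 higher in adherent mouse 2 than in adherent mouse 1. Nme7 rose by 5.49 by its brightest probe, but 4 of its 5 other probes gave -0.49 to -1.03.

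Mitochondrial lists differed in how many of their genes were called. Of 105 genes of the citrate cycle and respiratory chain, 1 rose (Ogdh at 1.16) and 2 fell (Ndufab1 at -1.11 and Ndufs8 at -1.03), with a median of -0.01, and cyclic loess left 1 rise and 0 falls. Other probes of Ndufab1 gave -0.85 to -0.94. Of 62 genes of mitochondrial import and dynamics 13 fell (21%, against 14.5% of all genes) and 3 rose (median -0.37). Tfam, which packs mitochondrial DNA, differed by -1.65 and Timm8a1, an import chaperone, by -1.81, while Ppargc1a, a coactivator of mitochondrial genes, had values of 8.94, 8.68 and 8.92 on the spheroid arrays and 6.00, 5.98 and 6.16 on the adherent arrays and rose by 2.80 ± 0.12. Chchd10 rose by 4.21. Glycolysis and pentose phosphate genes held 5 rises and 3 falls among 31, which median scaling turned to 4 and 8. The rises included regulators: Pfkfb2 and Pfkfb4, which set the level of the bisphosphate that stimulates glycolysis, by 3.27 and 2.80, and Pdk4, which shuts pyruvate dehydrogenase, at least 3.95-fold.

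**Figure D2:**
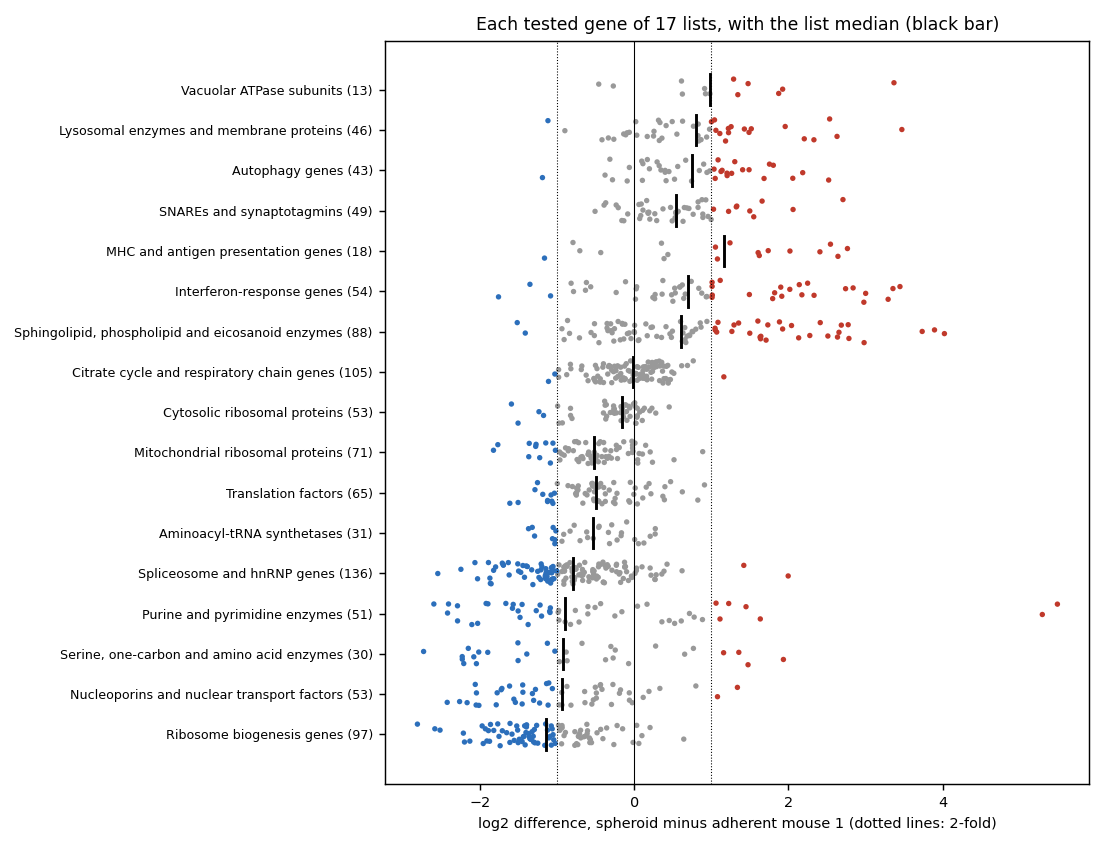
Log2 difference of each tested gene (points, spheroid minus adherent mouse 1) in 17 lists, with genes called higher in red, lower in blue, not called in grey, and the list median as a black bar. Ribosome biogenesis genes lie mostly left of 0 (median -1.15), citrate cycle and respiratory chain genes lie around 0 (median -0.01), and vacuolar ATPase genes lie mostly right of it (median 0.98).

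Lists of lysosomes and autophagy held larger shares of rises than the 13.9% of all genes. The vacuolar ATPase, a proton pump that acidifies lysosomes, had 13 tested subunits, of which 6 rose (46.2%) and 0 fell (median 0.98). Atp6v0a1, a membrane subunit, had values of 10.77, 10.66 and 10.55 on the spheroid arrays and 7.24, 7.30 and 7.34 on the adherent arrays. Atp6v0d1 differed by 1.87, with 2.10 to 2.23 by its other probes, Atp6v0b by 1.92 and Atp6v1e1 by 1.48. Of 46 lysosomal genes 17 rose (37.0%) and 1 fell (median 0.80), and of the 43 detected on all 6 arrays 15 rose and 1 fell. Grn, progranulin, had values of 11.74, 11.73 and 11.81 on the spheroid arrays and 9.39, 9.50 and 9.40 on the adherent arrays. Neu1, a sialidase, rose by 2.63, Sgsh, which degrades heparan sulfate, by 3.47, Cln3 by 1.96, and the protease Ctsl was at least 4.74-fold higher. Ctsa, a protective protein of lysosomal enzymes, rose by 2.20, but 1 of its other probes gave -3.13. Of 43 autophagy genes 17 rose (39.5%) and 1 fell (median 0.74). Sqstm1, the cargo receptor p62, had values of 12.53, 12.61 and 12.57 on the spheroid arrays and 10.11, 9.95 and 10.08 on the adherent arrays and rose by 2.52 ± 0.06 (limma adjusted p = 1.49e-15). The membrane-coupled proteins Gabarap, Map1lc3b and Map1lc3a rose by 2.06, 1.80 and 1.68, and Wipi1, which acts where autophagosomes form, by 2.18. Between the adherent cultures 0 genes of the vacuolar ATPase and autophagy lists and 1 of the lysosomal list were called.

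Vesicle traffic showed smaller shares. SNAREs and synaptotagmins, which fuse vesicles with membranes, held 9 rises (18.4%, against 13.9% of all genes) and 0 falls among 49 (median 0.54). Vamp8 rose by 2.06, Stx11 by 2.71 and Stx7 by 1.33. Rab GTPases and their regulators held 16 rises and 5 falls among 101 (15.8% higher, near the 13.9% of all genes). Rab27a, which docks secretory granules, had values of 11.55, 11.45 and 11.49 on the spheroid arrays and 7.11, 6.97 and 6.79 on the adherent arrays. Rab17, a Rab of polarised epithelium detected on 1 of 3 adherent arrays, rose by 4.17 and Rab3d by 2.94. Coats, clathrin adaptors and Arf GTPases held 9 rises and 1 fall among 78, and endosome sorting genes 8 rises and 2 falls among 92, both below the 13.9% of all genes that rose. Vps37b, of the sorting complex ESCRT-I, rose by 3.42.

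Both directions are read against the promoter sequences here as a description. Of the 9814 tested genes 7996 had a promoter in the table. The search on both strands was for 16 motifs, whose matches may overlap one another. These were TGANTCA for AP-1, CACGTG for E-box factors, CCACCC for Kruppel-like factors, CCGGAAG for Ets factors, GGAATG for Tead factors, AACCNGTT for Grainyhead factors, TGACNNNGC for the antioxidant response, TTTCGCGC for E2f factors, TTGCATCA for the amino acid response, TATAAA of the core promoter, CCAAT of the upstream box and TTTGAA of cell cycle promoters. The other 4, named here without letters, were the motifs of NF-kappaB, Nrf1, the interferon response and the glucocorticoid receptor. CCGGAAG was in 37.0% of the 81 ribosome biogenesis promoters, counting 250 bases before and 50 after the start, against 18.8% of all tested promoters, and in 24.7% against 14.1% over the 250 bases alone. CACGTG, the E-box of Myc and of the lysosomal Tfe factors, was in 16 of the 84 lysosome, vacuolar ATPase and autophagy promoters and in 16 of the 81 ribosome biogenesis promoters (19.8%), against 10.6% of all tested promoters. Over the 250 bases alone it was in 14 (16.7%) and in 7.41%, against 8.69%, so the share in ribosome biogenesis promoters rested on the 50 bases after the start. These list shares count every tested gene of a list, called or not. TGANTCA was in 8.16% of the promoters of genes called higher and 5.76% of those called lower outside both lists left aside, against 5.38% of all. Counted likewise, with the 50 bases after the start, CACGTG was in 9.44% and 12.7% and CCGGAAG in 12.4% and 18.9%. For ribosome biogenesis and for lysosomal genes, the promoter with CACGTG in the 250 bases before the start and the largest difference is shown. Both were chosen after their values were seen. Wdr46, of ribosome biogenesis, had values of 6.87, 7.25 and 7.23 on the spheroid arrays and 8.46, 8.51 and 8.46 on the adherent arrays, a difference of -1.36, and lies at chr17:33940473-33940722 on the plus strand, and Sgsh, with the difference given above, lies at chr11:119355511-119355760 on the minus strand.
Wdr46: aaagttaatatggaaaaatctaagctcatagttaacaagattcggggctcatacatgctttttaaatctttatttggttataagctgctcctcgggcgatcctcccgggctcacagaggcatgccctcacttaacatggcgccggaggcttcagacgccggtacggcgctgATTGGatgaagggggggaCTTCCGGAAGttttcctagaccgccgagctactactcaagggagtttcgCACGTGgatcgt
Sgsh: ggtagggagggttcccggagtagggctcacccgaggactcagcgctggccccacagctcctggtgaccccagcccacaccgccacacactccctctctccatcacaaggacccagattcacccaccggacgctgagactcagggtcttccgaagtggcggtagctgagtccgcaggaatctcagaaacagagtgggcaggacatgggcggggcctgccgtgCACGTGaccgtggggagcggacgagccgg
The capitals CACGTG stand near the end of both windows, and those in Wdr46 before it are matches to CCAAT and, on both strands and overlapping, to CCGGAAG.

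Lipid enzymes are grouped here by pathway. Of 88 sphingolipid, phospholipid and eicosanoid enzymes 30 rose (34.1%, against 13.9% of all genes) and 2 fell (median 0.61). Sult2b1, which sulfates cholesterol, rose by 4.02, Lpcat4 by 2.78 and the phospholipase Plcd3 by 2.77, and Hpgd, which inactivates prostaglandins, was undetected in the adherent culture and at least 11.4-fold higher. Of 78 fatty acid and triglyceride enzymes 21 rose and 11 fell, which median scaling turned to 11 and 13. Dgat2, which makes triglyceride, had values of 10.91, 11.04 and 11.10 on the spheroid arrays and 5.40, 4.59 and 4.78 on the adherent arrays and was detected on 2 of 3 adherent arrays. Agpat2 and Lpin2, earlier steps of that synthesis, rose by 2.84 and 3.29, although other probes of Lpin2 gave 0.52 to 1.40. The desaturases moved the other way: Fads1 had values of 10.09, 9.89 and 10.05 on the spheroid arrays and 13.10, 13.16 and 13.03 on the adherent arrays and differed by -3.09 (another probe gave -0.91), and Fads2 by -2.83. Of 37 cholesterol and isoprenoid genes 3 rose and 0 fell, and median scaling gave 1 and 3.

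Enzymes that act on foreign compounds and retinoids held 30 rises and 5 falls among 91 (33.0% higher). Adh7, an alcohol dehydrogenase of stratified epithelium that also oxidises retinol, had values of 12.30, 12.31 and 12.39 on the spheroid arrays and 7.20, 7.27 and 7.16 on the adherent arrays. It differed by 5.13 ± 0.07, and by 2.46 between the adherent cultures of mouse 2 and mouse 1. Aldh1a3, which makes retinoic acid, rose by 4.55, the cytochromes Cyp2f2 and Cyp3a13 by 4.59 and 4.43, and the sulfotransferase Sult1a1 was at least 22.6-fold higher. Cyp2b10 was at least 20.2-fold higher, with 0.20 by another probe. Of 88 glutathione, thioredoxin and antioxidant genes 20 rose (22.7%, against 13.9% of all genes) and 10 fell (11.4%, against 14.5%). Between the adherent cultures of mouse 2 and mouse 1, 10 of the 88 were called, against 2.47% of all genes. Glrx, glutaredoxin, rose by 4.50, Gsto2 by 4.37 (1.91 by another probe) and Hmox1, which degrades heme, by 3.61. Txnip, an inhibitor of thioredoxin, had values of 12.92, 12.76 and 12.77 on the spheroid arrays and 8.64, 8.39 and 8.60 on the adherent arrays, and its second probe gave 4.28. Of 129 glycan enzymes 18 rose and 21 fell, counts that cyclic loess turned to 20 and 15 and an offset of 50 to 14 and 13. The mucin-type branching enzyme Gcnt3 rose by 5.36.

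The transport families held more rises than falls. Solute carriers held 35 rises and 12 falls among 170 (20.6% higher), led by Slc46a3 at 3.90 and Slc17a9 at 3.41. Ion channels and aquaporins held 22 rises and 4 falls among 78 (28.2% higher, against 13.9% of all genes). Subunits of the epithelial sodium channel were among them: Scnn1g was undetected in the adherent culture and at least 13-fold higher, and Scnn1a, detected on 1 of 3 adherent arrays, rose by 3.52. Tmc7 was at least 31.5-fold higher and Clic3 rose by 5.12. Among ATP-driven pumps 8 of 43 rose (18.6%, against 13.9% of all genes) and 2 fell. Atp1b1, the beta subunit of the sodium pump, had values of 10.36, 10.48 and 10.28 on the spheroid arrays and 4.94, 4.93 and 4.43 on the adherent arrays, with 2 of 3 adherent arrays detected. The drug efflux pump Abcb1b fell, at -2.82.

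Genes of surface defence and antigen presentation rose in larger shares than the 13.9% of all genes. Of 40 secreted protease inhibitors and antimicrobial proteins 16 rose (40%) and 6 fell (15%, against 14.5% of all genes), with a median of 0.44. Beside Wfdc12, Lcn2 and Slpi these included Ltf, the iron-binding lactotransferrin, with values of 14.65, 14.61 and 14.60 on the spheroid arrays and 10.92, 10.53 and 9.89 on the adherent arrays. Serpinb11, a serine protease inhibitor, rose by 5.87. Of 38 innate sensors and complement genes 15 rose (39.5%) and 2 fell (median 0.60), or 9 and 2 of the 21 detected on all 6 arrays. Pglyrp4, which binds bacterial cell wall, was at least 36-fold higher, Pigr, which carries IgA across epithelium, at least 5.76-fold, and Card14, an adaptor of NF-kappaB in keratinocytes, rose by 2.93. Cd14, the endotoxin coreceptor, rose by 2.24 and is also counted among the leukocyte markers above.

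Of 54 interferon-response genes 22 rose (40.7%) and 3 fell (median 0.70), and 12 rose and 1 fell among the 33 detected on all 6 arrays. Parp14 had values of 8.48, 8.68 and 8.55 on the spheroid arrays and 5.36, 5.07 and 5.40 on the adherent arrays, and its neighbour in interferon signalling Dtx3l rose by 3.00 (another probe gave 0.25). Trim25, which activates an RNA sensor, rose by 3.44 (another probe gave 0.80), Usp18, which restrains interferon signalling, by 2.84, and Isg20, a nuclease, was at least 6.86-fold higher. Of 18 tested genes of antigen presentation 11 rose (61.1%) and 1 fell (median 1.16), and of the 14 detected on all 6 arrays 10 rose and 0 fell. H2-T23, a class I molecule, had values of 11.03, 11.15 and 11.24 on the spheroid arrays and 8.56, 8.34 and 8.22 on the adherent arrays. H2-D1, a classical class I chain, rose by 2.41 (0.82 by 1 other probe), B2m, the light chain, by 1.74 and H2-K1 by 2.02, with 1.04 by its other probe. Among the leukocyte markers Cd14 and Cd52 rose, by 2.24 and 1.42, and Csf1r was tested and not called. Laptm5 and Tyrobp were at background on all 6 arrays and Ptprc was detected on 1. The part of leukocytes in these genes was not tested. Class I genes are closely related in sequence, so their probes may share signal. Chemokines held 5 rises and 0 falls among 13 (38.5% higher, against 13.9% of all genes). Ppbp rose by 5.38 and stood 5.29 higher in adherent mouse 2 than in adherent mouse 1, so the adherent cultures differed by about as much as the cultures of mouse 1. Cxcl1 rose by 2.51 and Cxcl16 by 1.62. Interleukin and TNF family genes held 15 rises (22.4%, against 13.9% of all genes) and 3 falls among 67. The falls included the death receptor Fas at -3.39 and Tnfrsf18 at -2.90.

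**Figure D3:**
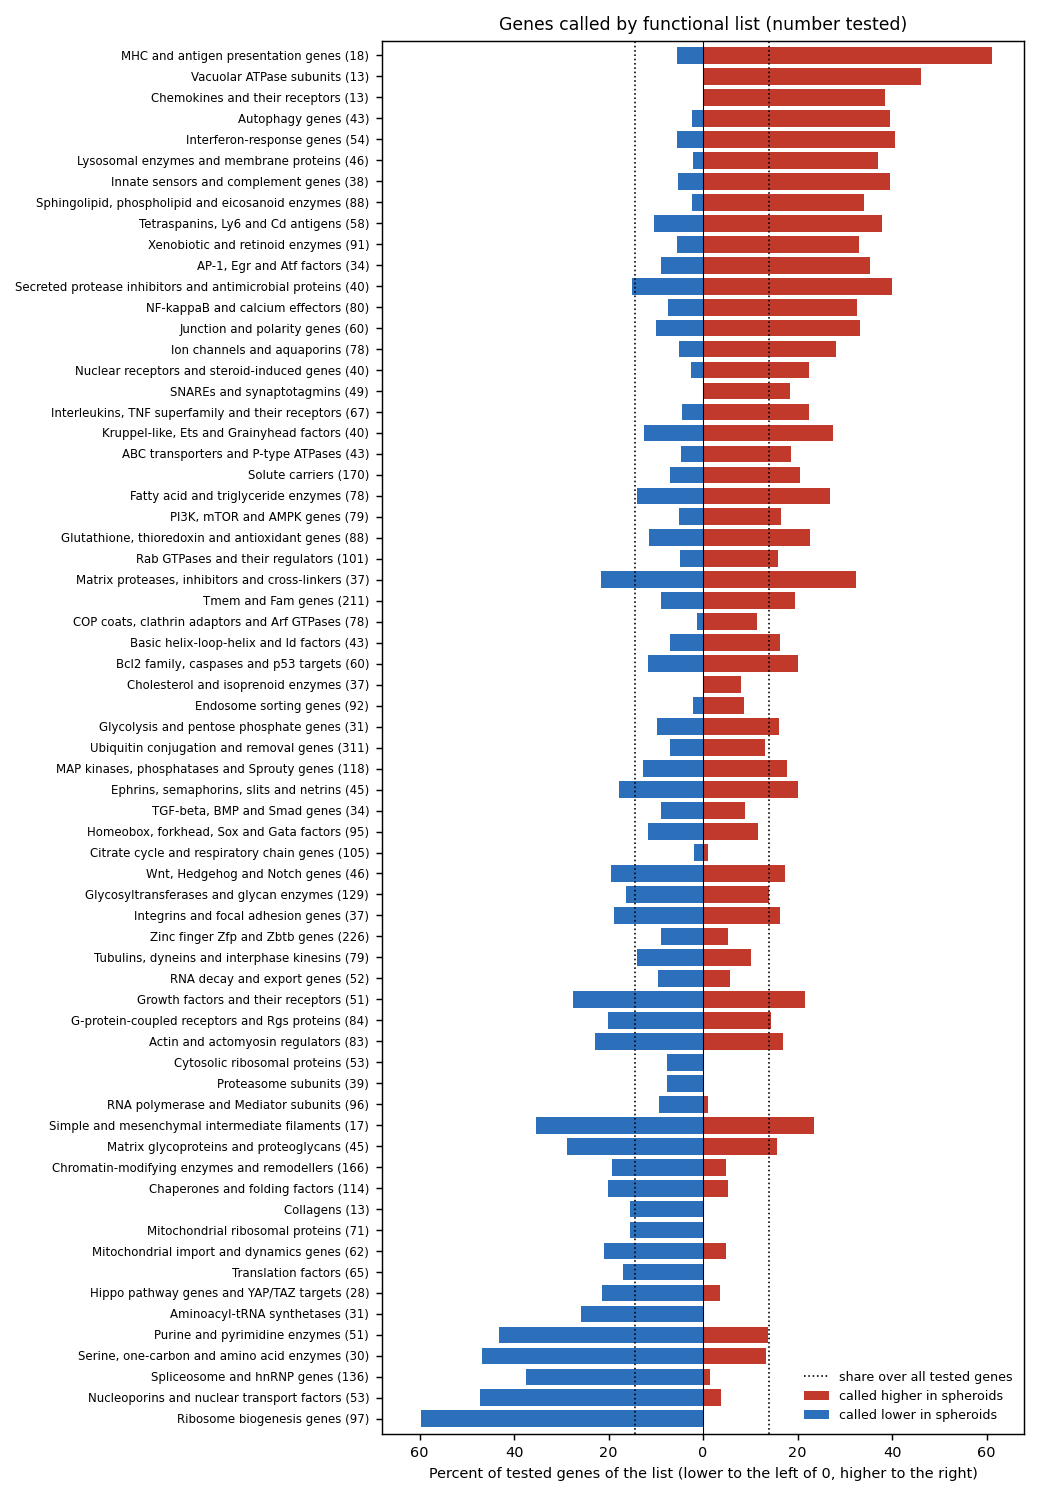
Share of the tested genes of each of 66 lists by function that was called higher (right of 0, red) or lower (left of 0, blue) in spheroids, with the number tested in brackets and the shares over all tested genes as dotted lines (13.9% and 14.5%). Antigen presentation, vacuolar ATPase and chemokine genes stand at the top, and nuclear pore and ribosome biogenesis genes at the bottom.

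Junction and matrix lists had medians of opposite sign. Of 60 genes of junctions and polarity, which join epithelial cells to each other, 20 rose (33.3%, against 13.9% of all genes) and 6 fell (10%), with a median of 0.56. Cldn1, a tight junction claudin, had values of 10.61, 10.44 and 10.62 on the spheroid arrays and 6.09, 5.55 and 6.03 on the adherent arrays. Gjb2, a gap junction connexin, rose by 4.82, Cldn23 by 4.07 and the adhesion molecule Ceacam1 by 4.36, while another Ceacam2 probe gave 0.26 beside 4.42. Of 45 matrix glycoproteins and proteoglycans 13 fell (28.9%, against 14.5% of all genes) and 7 rose (15.6%, near the 13.9% of all genes), with a median of -0.47. Tnc, tenascin C, had values of 9.72, 9.72 and 9.47 on the spheroid arrays and 13.18, 13.23 and 13.12 on the adherent arrays, and its 6 other probes gave -2.15 to -4.05. Sparc, which binds collagen, differed by -3.18. Tgfbi was undetected in the adherent culture and at least 15.2-fold higher (1.54 on the log2 scale by its other probe), and Tnxb, tenascin X, rose by 3.31. Of 41 collagens on the array 13 were tested, of which 2 fell (15.4%, near the 14.5% of all genes), Col16a1 at -1.94 and Col18a1 at -1.18.

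The fibroblast and smooth muscle markers above were lower in spheroids as well, and their part in the matrix genes was not tested. Among 37 integrin and focal adhesion genes 6 rose and 7 fell, counts that cyclic loess turned to 6 and 5. Itgb6, the epithelial integrin chain that activates TGF-beta, had values of 12.15, 11.87 and 11.93 on the spheroid arrays and 9.70, 9.89 and 9.67 on the adherent arrays. Lims2 rose by 4.94, and Fermt2, which activates integrins, fell, at -1.95. Matrix proteases and their inhibitors held 12 rises and 8 falls among 37, even at 9 and 9 under median scaling. The plasminogen activators moved apart, since Plau, urokinase, had values of 5.68, 5.48 and 5.98 on the spheroid arrays and 8.72, 8.81 and 8.48 on the adherent arrays and fell while Plat rose. The inhibitors did too: Timp2 rose by 2.52 and Timp1 differed by -2.25. Actin and myosin genes held 14 rises and 19 falls among 83, or 15 and 15 under cyclic loess. Myo5b, a motor of apical recycling, rose by 3.30 (another probe gave 0.73), and Diaph3, which extends actin filaments, fell, at -3.50. Of 28 Hippo pathway genes 6 fell (21.4%, against 14.5% of all genes) and 1 rose. The falls included Tead2, a partner of YAP, at -3.45 and the YAP target Ccn1 at -1.82.

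Regulators of transcription included large rises. Of 40 nuclear receptors and steroid-induced genes 9 rose (22.5%, against 13.9% of all genes) and 1 fell (2.5%). Fkbp5, a chaperone induced by steroid receptors, had values of 11.11, 11.13 and 11.06 on the spheroid arrays and 5.53, 5.66 and 5.41 on the adherent arrays. Tsc22d3, the glucocorticoid-induced leucine zipper, had values of 11.92, 12.08 and 12.01 on the spheroid arrays and 7.40, 7.41 and 7.75 on the adherent arrays, and Per1, a clock gene also induced by glucocorticoids, rose by 2.30. These genes did not overlap between cultures, which held for 70.2% of all tested genes and for every called gene. Of 43 helix-loop-helix and Id factors 7 rose (16.3%, near the 13.9% of all genes) and 3 fell (6.98%). Mxd1, which competes with Myc for its partner Max, had values of 10.64, 10.60 and 10.89 on the spheroid arrays and 5.27, 5.53 and 5.23 on the adherent arrays, although 1 of its other probes gave 0.69. Id2 and Id1, inhibitors of helix-loop-helix factors, rose by 5.06 and 4.27, and Id4 fell, at -3.09. Of 40 Kruppel-like, Ets and Grainyhead factors 11 rose (27.5%, against 13.9% of all genes) and 5 fell (12.5%), with Elf3 at 4.41, Grhl1 at 3.96 and Klf9 at 3.40. Of 34 AP-1, Egr and Atf factors 12 rose (35.3%, against 13.9% of all genes) and 3 fell (8.82%), with Fos at 2.89 and Junb at 1.79. Homeobox, forkhead, Sox and Gata factors were even, with 11 rises and 11 falls among 95, but 7 and 15 under median scaling or 7 and 9 with an offset of 50. Hopx rose by 5.67, and Sox12 was at least 6.1-fold lower by its brightest probe while its other probes gave 0.22 and 0.24. Of 166 chromatin genes 32 fell (19.3%, against 14.5% of all genes) and 8 rose (4.82%, against 13.9%). The falls included the arginine methyltransferase Prmt1 at -2.83 and the maintenance DNA methyltransferase Dnmt1 at -2.36, and another Prmt1 probe gave -0.51.

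**Figure D4:**
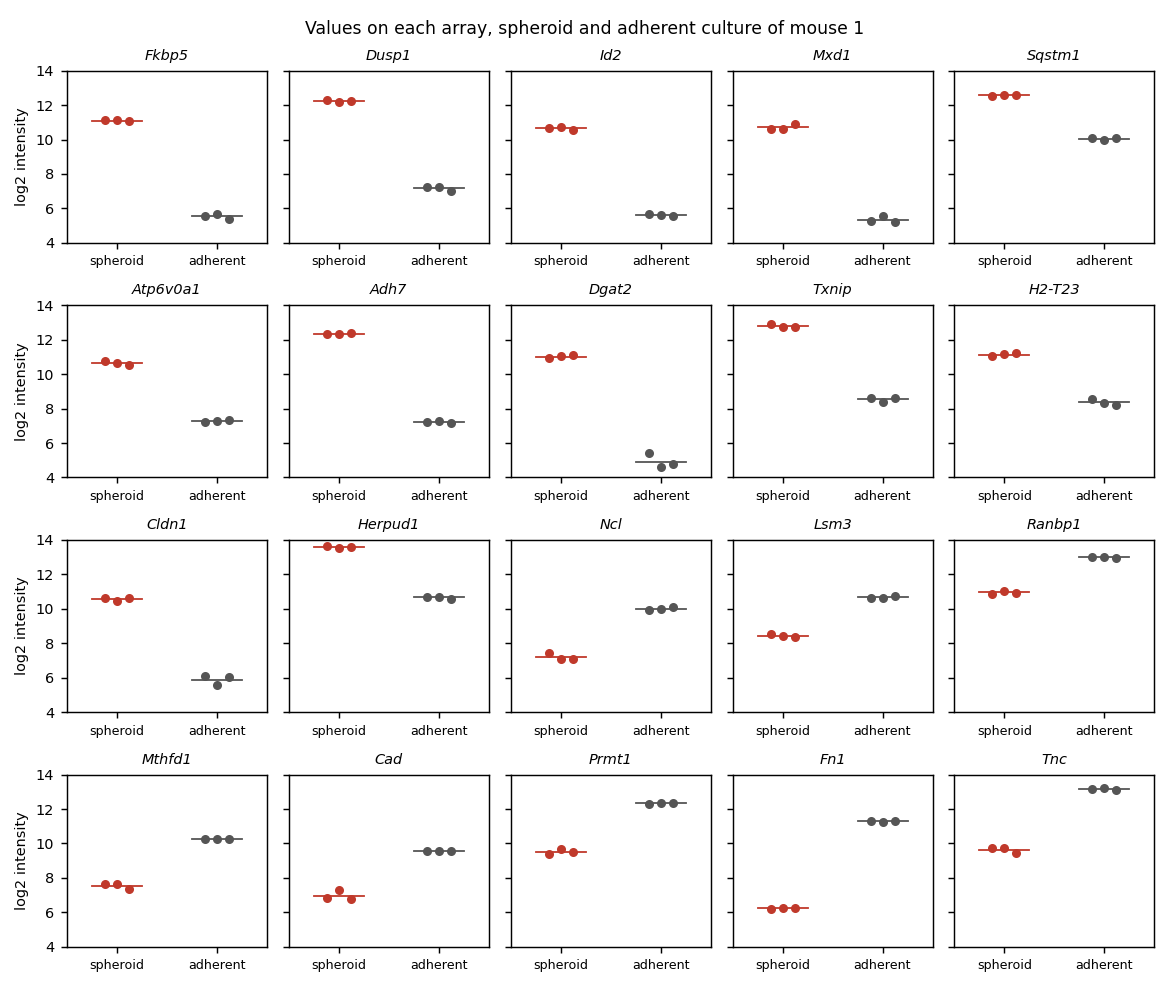
Log2 intensity of 20 genes on each of the 3 spheroid arrays (red, left) and the 3 adherent arrays of mouse 1 (grey, right), with the mean as a line. In each panel the cultures do not overlap, which held for 70.2% of all tested genes. Fkbp5 lies near 11.1 in spheroids and 5.5 in adherent cells, and Ncl near 7.2 and above 9.9.

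Signalling lists held both rises and falls. Dusp1 and Dusp4, phosphatases that switch off MAP kinases, rose by 5.08 ± 0.08 and 5.35, in a list with 21 rises and 15 falls among 118 that median scaling turned to 17 and 19. Mapk13, a p38 kinase of epithelium, rose by 4.91 and Map3k8 by 5.01. Of 80 NF-kappaB and calcium genes 26 rose (32.5%, against 13.9% of all genes) and 6 fell (median 0.51). The rises included Tnip1, an inhibitor of NF-kappaB, at 3.75 and Tnfaip2 at 4.46. Of 79 PI3K, mTOR and AMPK genes 13 rose and 4 fell, or 6 and 7 under median scaling, and among them Sesn1 rose by 2.05 and Ddit4l fell, at -2.65, both genes being known as inhibitors of mTOR signalling. Growth factors and their receptors held 11 rises (21.6%, against 13.9% of all genes) and 14 falls (27.5%, against 14.5%) among 51. Epgn, an EGF receptor ligand, fell, at -2.21 (another probe gave -0.02), as did Fgfr2, at -1.91. Of the Wnt and Hedgehog genes Wnt4 rose by 2.17, and Gli3 and Fzd7 fell, at -1.82 and -2.14 (another Gli3 probe gave -0.75). Their list held 8 rises and 9 falls among 46, which cyclic loess turned to 10 and 9 and an offset of 50 to 5 and 3. Among 114 chaperones 23 fell (20.2%, against 14.5% of all genes) and 6 rose (5.26%, against 13.9%). The falls included the Hsp90 cochaperones Stip1 at -1.59 and Ahsa1 at -1.56. Herpud1, of protein quality control in the endoplasmic reticulum, had values of 13.66, 13.54 and 13.58 on the spheroid arrays and 10.71, 10.71 and 10.58 on the adherent arrays and rose. Of 39 proteasome genes 3 fell (7.69%, below the 14.5% of all genes). All 3 were assembly chaperones (Psmg1, Psmg2 and Psmg3).

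**Figure D5:**
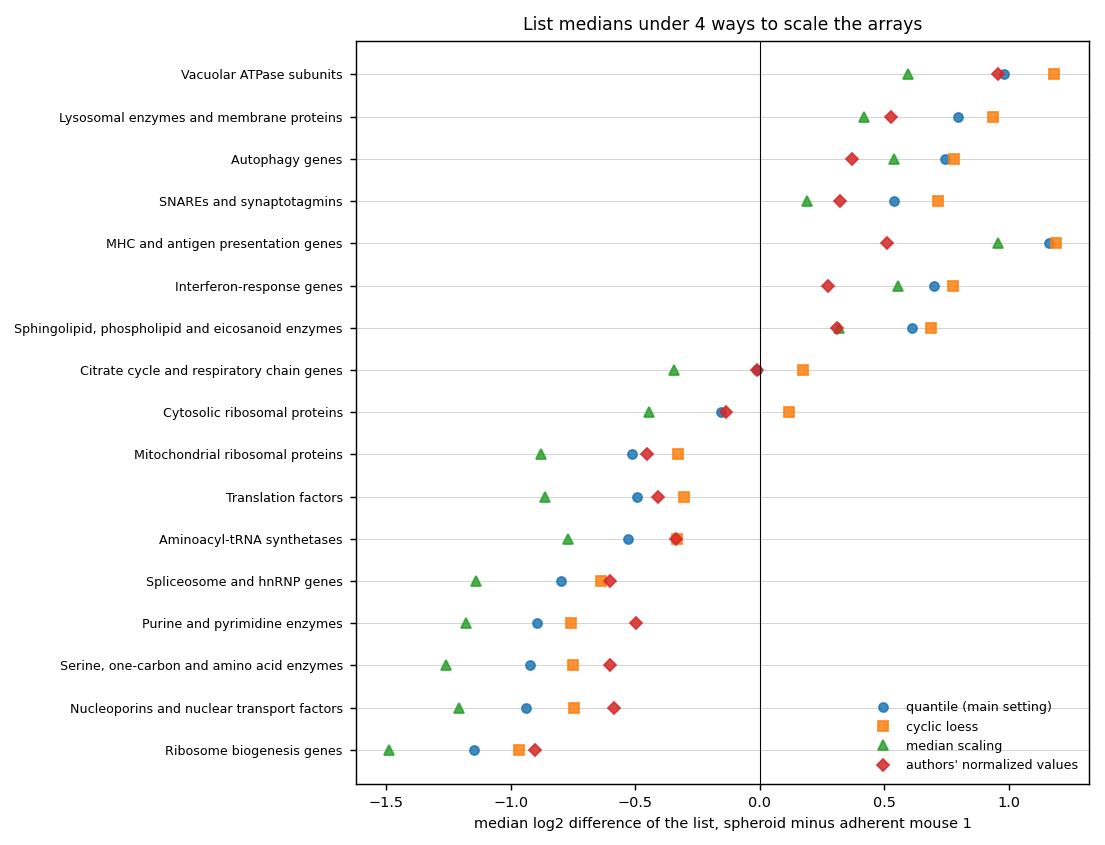
Median log2 difference (spheroid minus adherent mouse 1) of 17 lists under 4 ways of scaling the arrays. The lists from vacuolar ATPase to sphingolipid enzymes stay right of 0 and those from mitochondrial ribosomal proteins to ribosome biogenesis left of 0 under each, while cytosolic ribosomal proteins and citrate cycle genes lie on either side.

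Surface antigens and intermediate filaments held large single differences. Of 58 tetraspanin, Ly6 and Cd genes 22 rose and 6 fell (37.9% higher, against 13.9% of all genes). Between the adherent cultures of mouse 2 and mouse 1, 10 of the 58 were called, against 2.47% of all genes. Psca, prostate stem cell antigen, had values of 14.27, 14.36 and 14.21 on the spheroid arrays and 8.26, 8.26 and 7.57 on the adherent arrays, a difference of 6.26 ± 0.13. Pmp22, a membrane protein of epithelium and myelin, was at least 18.4-fold higher. Of 17 simple and mesenchymal filament genes 4 rose (23.5%, against 13.9% of all genes) and 6 fell (35.3%, against 14.5%). Krt7, a keratin of simple epithelium, rose by 2.26 and Krt15, of basal cells, by 2.50. The luminal keratin Krt18 fell, at -1.425, and Krt8 differed by -0.84 and was not called. Synm, synemin, fell, at -2.10 (another probe gave -0.90). Among 60 genes of the Bcl2 family, caspases and p53 targets 12 rose and 7 fell, or 10 and 10 under median scaling. The rises included both a promoter and an inhibitor of cell death, Bcl2l11 (Bim) at 2.42 and Bcl2l1 (Bcl-xL) at 2.26. Of 34 TGF-beta and BMP genes 3 rose and 3 fell, which median scaling turned to 3 and 9 and cyclic loess to 3 and 2. Axon guidance genes held 9 rises and 8 falls among 45, or 5 and 10 under median scaling, with Sema7a, a membrane semaphorin, at least 13.9-fold higher and Unc5b, a netrin receptor, at 3.62. Ubiquitin genes held 41 rises and 22 falls among 311, or 22 and 43 under median scaling, among them the rise of Usp53, at 3.70 (1.28 and 2.64 by its other probes).

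Some of the tested genes were detected in 1 culture alone. On all spheroid arrays and no adherent array 238 were detected, of which 137 were called. On all adherent arrays and no spheroid array 187 were detected, of which 81 were called. These genes passed the filter through that culture, so the filter set their direction and the counts are no separate result. Over all tested genes 28.4% were called. Among the brightest of these, Gpnmb, a membrane glycoprotein found on lysosomes, was at least 43.6-fold higher in spheroids (1.77 on the log2 scale by its other probe), Bcas1 at least 39.6-fold, Chrd, the BMP antagonist chordin, at least 38.4-fold and Ly6m at least 37.1-fold (1.44 by its other probe). Evc2, a cilium protein of Hedgehog signalling, was at least 11.4-fold lower in spheroids, Ddah1, which degrades methylarginine, at least 11.3-fold, Serpinf1, a secreted antiangiogenic serpin, at least 7.88-fold (-0.74 by its other probe) and Dab2, an endocytic adaptor, at least 6.97-fold (-2.52 by its other probe).

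For 1716 of the 9814 genes the 95% interval of the log2 difference lay within 0.5 of 0. The brightest of them, most of them genes of translation, were Rplp1, Eef1a1, Rps12, Ppia, Rps2, Rpl41, Gsto1 and S100a11, at -0.16 to 0.24.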

How the data were processed

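Total RNA of cultured C57Bl/6 prostate cells was labelled as biotinylated cRNA and hybridised to an Illumina mouse bead array, per the labels. The deposited table gives, per the file headers, a mean bead intensity per probe and array, not normalized and with background included, and a detection p-value from negative control beads. The authors' normalized intensity values, deposited beside it with no method given in the sources used here, served as an alternative. Of 45135 probes 34773 had 1 gene symbol in the platform's annotation, 18 had several and 10344 had none, and 34695 matched RefSeq names. Adherent mouse 2 has 2 columns of the same name, used as unnumbered replicates of that group.

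The 12 arrays were background-corrected and quantile-normalized with neqc (limma 3.58.1, R 4.3.3, offset 16), which estimates background from the detection p-values. The brightest passing probe stood for a gene, so 3766 genes with several passing probes rest on 1 of them. A linear model with an intensity trend was fitted to the 6 arrays of mouse 1 with limma, and p-values were adjusted over all 9814 genes. In 20 simulations of this comparison with 200 of 9814 genes changed, 99.5% were recovered at a log2 change of 1.5 and 100% at 2, with 0.05 false calls a run. The simulations drew independent noise of the fitted array spread, with no normalization and no spread between cultures. They therefore do not give the rate of false calls in these data. No pair of arrays was identical. Log2 intensities correlated at 0.989 to 0.991 within spheroids, at 0.993 within adherent mouse 1 and at 0.835 to 0.844 between the cultures. The number of arrays limits the precision. A bound ("at least") sets the bright group's mean against the higher of the dim group's signal and the lowest detected signal on each of its arrays.

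Genes, lists and motifs were chosen with earlier results of these data known. Several patterns of the lists (a matrix gene among chaperones, kinases among tubulins, a pair of zinc finger genes under RNA decay) were corrected after values were seen. Outside squamous and cell cycle genes, the text names the 12 largest rises and 12 largest falls, up to 6 called genes per list with the largest differences, the brightest genes detected in 1 culture alone, the brightest genes with a 95% interval within 0.5 of 0, cell type markers, and the promoters of the 2 largest rises and falls in the promoter table off chromosome 18. Of the 67 lists by function 1 is not reported here. Where a call count is 5 or fewer, all genes may be named. The same replicate numbers did not pair the arrays, with correlations of their deviations at 0.03, -0.04 and 0.06.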

Additional observations from a re-analysis of the deposited data

Results flagged for a closer look

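Probes without a single gene symbol were outside the comparison of named genes, and 549 of 2904 of them that passed the detection filter were called between the spheroid and the adherent culture of mouse 1 (18.9%), 257 higher and 292 lower. The log2 differences reached 4.75 and -4.40. Their genes are unnamed here.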

How the results depend on the processing

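Without background correction 1273 genes were called (682 higher, 591 lower), with the authors' normalized values 1464 (752 and 712), with limma's treat test against a 2-fold change 1784 (936 and 848), and with no fold threshold 6562 (2989 and 3573). The other alternatives stayed within 1.5 times the main count of 2788, from 2035 with an offset of 50 to 3074 under median scaling. Leaving out 1 array at a time gave 2799 to 2822 calls, 1365 to 1391 higher and 1414 to 1447 lower. With the replicate number as a block, 2788 genes were called (1366 and 1422), and the numbers did not pair the arrays. Of 399 named genes, the call was lost in 81 without background correction, 55 with the authors' values, 35 under treat, 22 with an offset of 50, 16 under cyclic loess, 12 with the mean of all passing probes of a gene and 10 under median scaling. The mean of probes called 2616 genes, 1 of them in the opposite direction. Sox12 was the lone named gene to reverse, at 0.24 (limma adjusted p = 0.335) when detection on all 6 arrays was required, because another probe then stood for it. Of the genes with an adjusted p under 0.05, 3774 differed by less than 2-fold and were not called.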
